A study of Mus musculus with 4 samples.

Results

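The genes described here are Prg2, Alox5ap, Csf2rb and Csf2rb2, which encode an eosinophil granule protein, a protein of leukotriene synthesis and both mouse beta chains of the receptors for interleukin-3, interleukin-5 and granulocyte-macrophage colony-stimulating factor. All probes whose single platform gene symbol is one of these names were taken, which gave 5 probes of 20205 on the array, for 4 genes. Prg2 had 2 probes and the other genes 1 probe each, and 4 of the 5 probes had a value on every array. The arrays measured RNA from the lungs of inbred BALB/cJ mice that had been sensitized to ovalbumin (OVA), the model allergen from egg white, and then challenged with it. Animals breathed either air containing UCP (not spelled out in the labels) or particle-free air. Each of 4 dual-colour arrays, 2 per air, set challenged lung against a pool of lung RNA from 6 control animals kept in the same air, described by the design as non-sensitized. Challenged lung carried Cy5 on array 1 and Cy3 on array 2 of each air. No age, cell fraction or time after challenge was given. Challenged animals were also sensitized and the controls were described as non-sensitized, so sensitization and challenge cannot be told apart. The control pool was the other channel of every array, so the spread among control animals was not measured.

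Eosinophils are granulocytes that enter the airways in allergic inflammation. Interleukin-5 drives their formation and survival by binding its own alpha chain, which pairs with a shared beta chain and passes the signal on through the kinase Jak2 and the transcription factor Stat5. In the mouse Csf2rb is the beta chain shared by the receptors for all 3 cytokines, while its close relative Csf2rb2 serves interleukin-3. Csf2rb and Csf2rb2 are adjacent protein-coding genes on chromosome 15, and their sequences are near-identical, so how far each probe reads the other transcript was not tested. Prg2 on chromosome 2 encodes the major basic protein of the eosinophil granule and has the related granule gene Prg3 as a neighbour. Alox5ap on chromosome 5 encodes the membrane protein (FLAP) that presents arachidonic acid to 5-lipoxygenase for leukotriene synthesis. It is not restricted to eosinophils, since macrophages, neutrophils and mast cells use it as well.

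Promoter sequence from RefSeq (build GRCm38.p6, 250 bases before the annotated start) was at hand for 1 of the 4 genes, Csf2rb2. It is shown because Csf2rb2 is one of the genes that lay above 0 on every array. Cish and Prg3 are set beside it because Cish, a target of Stat5, lay highest among the receptor family genes below, and Prg3, the granule relative of Prg2, lay near 0. The regions are chr15:78305722-78305971 on the minus strand for Csf2rb2, chr9:107296409-107296658 on the plus strand for Cish and chr2:84987965-84988214 on the plus strand for Prg3, each printed 5′ to 3′ along the gene. Capitals mark matches on either strand to TTCNNNGAA, the core letters bound by Stat5, and to GATAAG, letters bound by GATA factors, which never overlapped here. Both motifs were chosen after the array values were seen.
Csf2rb2: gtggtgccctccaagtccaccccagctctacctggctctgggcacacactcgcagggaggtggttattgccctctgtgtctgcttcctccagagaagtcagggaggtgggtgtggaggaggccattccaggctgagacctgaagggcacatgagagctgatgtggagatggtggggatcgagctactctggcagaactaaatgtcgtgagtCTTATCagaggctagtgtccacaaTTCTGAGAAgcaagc
Cish: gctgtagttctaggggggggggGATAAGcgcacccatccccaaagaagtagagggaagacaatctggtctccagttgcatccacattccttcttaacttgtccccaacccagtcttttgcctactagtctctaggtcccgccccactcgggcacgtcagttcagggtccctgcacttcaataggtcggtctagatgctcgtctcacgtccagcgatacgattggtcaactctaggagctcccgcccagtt
Prg3: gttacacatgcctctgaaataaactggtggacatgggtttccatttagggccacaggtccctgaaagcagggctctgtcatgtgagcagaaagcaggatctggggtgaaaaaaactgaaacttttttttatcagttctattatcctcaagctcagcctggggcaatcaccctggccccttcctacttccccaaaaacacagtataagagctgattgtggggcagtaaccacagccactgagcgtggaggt
The Csf2rb2 sequence held 1 match to TTCNNNGAA (TTCTGAGAA), starting 15 bases before the gene start, and 1 match to GATAAG, read on the opposite strand and starting 39 bases before it. The Cish sequence held 1 match to GATAAG, starting 228 bases before the start, and Prg3 held none of either motif. Of 32851 promoters of the same length, 7.02% held TTCNNNGAA and 6.55% held GATAAG. Of 34 measured genes of the pathway lists below that had a promoter in the table, 2 held TTCNNNGAA (Csf2rb2 and Icam1, whose log2 ratio averaged near 0) and 2 held GATAAG (Csf2rb2 and Cish). These matches describe the letters and were not tested for binding.

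Each value is a log2 ratio (challenged lung divided by its control pool), which measures a difference from the controls and not a level. The arrays held values for 19349 to 19832 probes. No brightness values were used, so neither the lung identity of the samples nor the depth of signal behind a probe could be read from levels. That the 4 arrays run in 1 direction was read from their extreme values. The overall sign is likely only, resting on the common practice of dividing Cy5 by Cy3 and on genes whose abundance in allergic mouse lung is well known, such as Chil3, a chitinase-like protein of macrophages, with an averaged log2 ratio of 5.58 ± 0.24 (SD, n = 4). Over the 18160 probes with a value on all 4 arrays, arrays correlated with Spearman coefficients of 0.275 and 0.301 where the dyes ran the same way, and of 0.262 in UCP air and 0.122 in particle-free air between the arrays of 1 air, where the dyes ran opposite ways. Whether the arrays of an air came from separate animals is not stated in the labels, so p-values reflect the spread between arrays alone, and that spread may be technical. In whole lung, a change in the number of cells of a type and a change of RNA per cell cannot be told apart.

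The first question was how the 4 genes differed between challenged and control lung whatever the air. Alox5ap lay 1.96-fold and Csf2rb2 1.79-fold above the control pools on average, and both were above 0 on 4 of 4 arrays. Prg2 averaged 1.4-fold on its complete probe and Csf2rb 1.2-fold, each with 1 array slightly below 0. In limma, 0 of the 4 complete probes passed an adjusted p of 0.05 (Benjamini-Hochberg over 18160 probes), where 0.00551% of all probes passed on the high side. At an unadjusted p under 0.05, 2 of the 4 lay on the high side, Alox5ap and Csf2rb2, where 6.45% of all probes did so.

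Prg2, the granule protein, had log2 ratios of 0.66 and 0.31 on arrays 1 and 2 of UCP air, against 1.01 and -0.02 on arrays 1 and 2 of particle-free air, for probe 5102. The higher value came from the Cy5 array in both airs, and the airs overlapped fully. Its average was 0.49 ± 0.44 (SD, n = 4), with a 95% confidence interval of -0.14 to 1.12 in the limma fit (adjusted p = 0.432). With dye orientation as a term, the dye part of this probe was 0.35 ± 0.18 (SE), larger than for the other 3 genes (0.06 to 0.16), with a limma adjusted p of 0.843. The other Prg2 probe, 5282, had 1.23 on array 2 of UCP air and no value on array 1, against -0.19 and -0.99 in particle-free air. The probes disagreed in size on each array that had both, by 0.93 on array 2 of UCP air and by -1.20 and -0.98 in particle-free air (probe 5282 minus probe 5102). Probe 5282 was not in the main fit because of its missing value. Its UCP minus particle-free difference was 1.83, given as a size alone because UCP air rests on 1 array for this probe. For Prg2 these arrays thus gave no common direction between probes in particle-free air.

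Alox5ap, the 5-lipoxygenase activating protein, had the highest average of the 4 genes, though not the highest value on every array. Its log2 ratios were 1.10 and 0.54 on arrays 1 and 2 of UCP air, against 0.98 and 1.28 on those of particle-free air. Each array lay above its control pool, by 1.45-fold at the lowest and 2.43-fold at the highest, and the lowest value was array 2 of UCP air. The average was 0.97 ± 0.32 (SD, n = 4), with a 95% confidence interval of 0.49 to 1.45 (limma adjusted p = 0.174, unadjusted p = 0.00432). Of all probes, 2.11% had an average at least as high, and 1.28% had a lowest array at least as high as that of Alox5ap.

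Csf2rb2, the beta chain of the interleukin-3 receptor, followed closely. Its log2 ratios were 0.96 and 0.50 on arrays 1 and 2 of UCP air, against 1.05 and 0.86 on those of particle-free air. Again no array lay below 0, array 2 of UCP air was lowest, and the airs overlapped. The average was 0.84 ± 0.24 (SD, n = 4), with a 95% confidence interval of 0.40 to 1.28 (limma adjusted p = 0.186, unadjusted p = 0.00568). Of all probes, 3% had an average at least as high and 1.51% a lowest array at least as high.

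Csf2rb, the beta chain shared with the interleukin-5 receptor, had log2 ratios of 0.40 and 0.55 in UCP air, against 0.25 and -0.14 in particle-free air. Both arrays of UCP air lay above both arrays of particle-free air. The share of all probes separated in this way was not counted, and the difference between the airs did not pass in limma (adjusted p = 0.984). The average was 0.26 ± 0.30 (SD, n = 4), with a 95% confidence interval of -0.16 to 0.69 (limma adjusted p = 0.516). Set against its neighbour on the same arrays, Csf2rb2 minus Csf2rb came to 0.56 and -0.05 in UCP air, against 0.80 and 0.997 in particle-free air. The difference was above 0 on 3 of 4 arrays, with a mean of 0.57 ± 0.45 (SD, n = 4, exact two-sided permutation p = 0.25 over array signs, where 0.125 is the smallest possible). With 4 arrays this test cannot reach 0.05, so it does not decide whether the ratios of Csf2rb2 and Csf2rb differ.

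**Figure D1:**
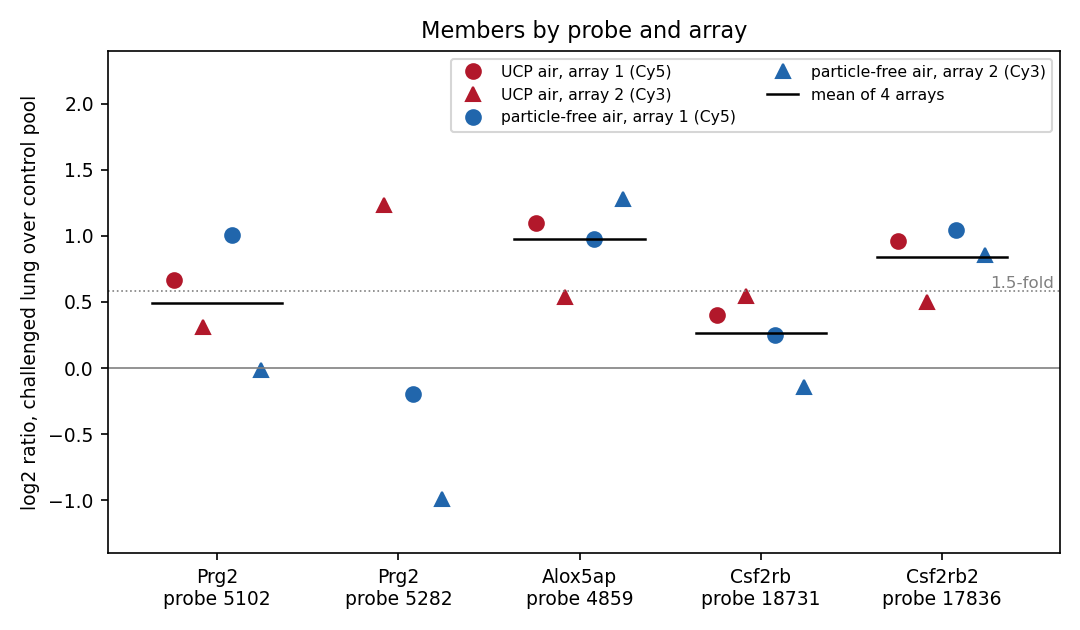
Log2 ratio of challenged lung over control pool (vertical axis) for each probe of the 4 genes (horizontal axis), with 1 point per array and a bar at the mean for probes with 4 values. Alox5ap and Csf2rb2 lie above 0 on every array, with array 2 of UCP air lowest at 0.54 and 0.50, while the Prg2 probes lie apart from each other.

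Counts without a model showed how close these genes came to a fixed fold. Above 0 on all 4 arrays were 2 of the 4 complete probes, as were 12.7% of all probes. At least 1.5-fold higher on all 4 arrays were 0 of 4, against 1.13% of all probes: Alox5ap at 1.45-fold and Csf2rb2 at 1.41-fold on array 2 of UCP air lay just under it, and their other 3 arrays lay over it. On both arrays of UCP air 0 of 4 reached 1.5-fold (3.23% of all probes), and on both arrays of particle-free air 2 of 4 did, Alox5ap and Csf2rb2 (3.68% of all probes). With 4 probes these shares describe the genes and test nothing.

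**Figure D2:**
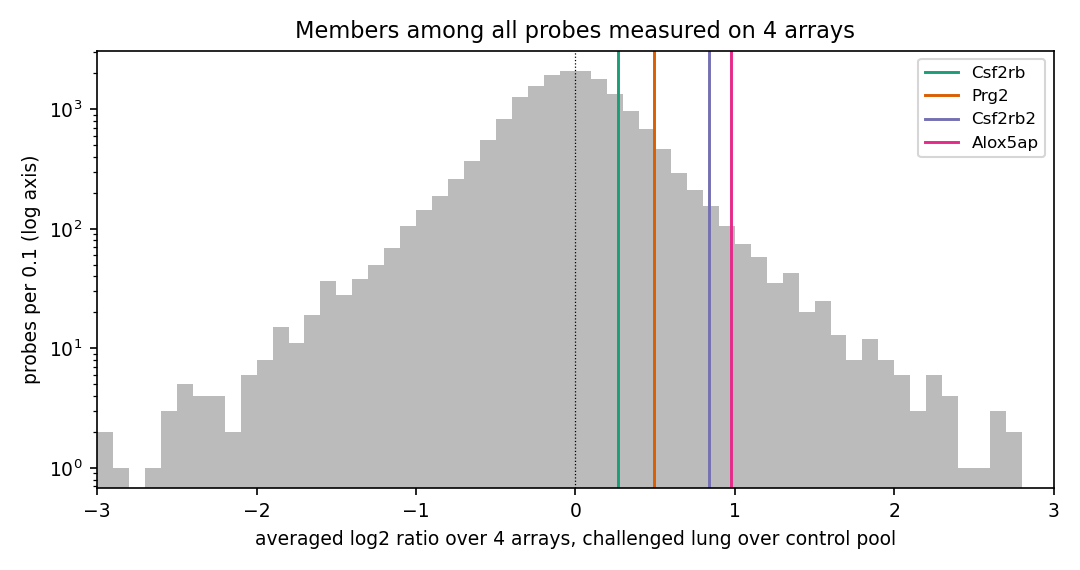
Number of probes per 0.1 of averaged log2 ratio (vertical log axis) over the range from -3 to 3 (horizontal axis), for probes with a value on all 4 arrays, with vertical lines at the 4 genes. Alox5ap (0.97) and Csf2rb2 (0.84) lie in the upper tail, where 2.11% and 3% of probes were at least as high, and Prg2 (0.49, 9.01%) and Csf2rb (0.26, 20.1%) lie nearer the centre.

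The next question was whether the challenge effect of these genes differed between UCP air and particle-free air. Within UCP air the averages were 0.82 ± 0.40 for Alox5ap, 0.73 ± 0.33 for Csf2rb2, 0.49 ± 0.25 for Prg2 and 0.47 ± 0.10 for Csf2rb (SD, n = 2 each). Within particle-free air they were 1.13 ± 0.21 for Alox5ap, 0.95 ± 0.13 for Csf2rb2, 0.50 ± 0.73 for Prg2 and 0.06 ± 0.28 for Csf2rb (SD, n = 2 each). Neither air alone gave an adjusted p under 0.05 in limma for any of the 4 genes, the smallest being 0.507 in UCP air and 0.392 in particle-free air, both for Alox5ap, and 0 of all probes passed in either air. At an unadjusted p under 0.05 Alox5ap and Csf2rb2 lay on the high side in UCP air (3.7% of all probes) and in particle-free air (4.55% of all probes). Alox5ap and Csf2rb2 were the lower ones in UCP air, with UCP minus particle-free differences of -0.31 (95% confidence interval -1.27 to 0.65) and -0.22 (-1.11 to 0.67). The size of both moved with each array left out. Without array 2 of UCP air the difference was -0.027 for Alox5ap and 0.008 for Csf2rb2, and without array 1 of UCP air it was -0.59 and -0.46. Without array 1 of particle-free air it was -0.46 for Alox5ap and -0.13 for Csf2rb2, and without array 2 of that air -0.16 and -0.32. Csf2rb was the higher one in UCP air, with a difference of 0.42 (-0.43 to 1.27) that ranged from 0.22 without array 2 to 0.61 without array 1 of particle-free air. Prg2 lay at -0.01 (-1.26 to 1.24), and between -0.52 without array 2 and 0.50 without array 1 of particle-free air. None of these 4 differences passed in limma, with adjusted p from 0.984 to 0.999 and 0 of 4 at an unadjusted p under 0.05, where 1.95% of all probes were higher and 2.02% lower. Each of the 4 intervals reaches past 1 log2 unit in at least 1 direction, so these arrays leave the size of any difference between the airs poorly known for all 4 genes.

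**Figure D3:**
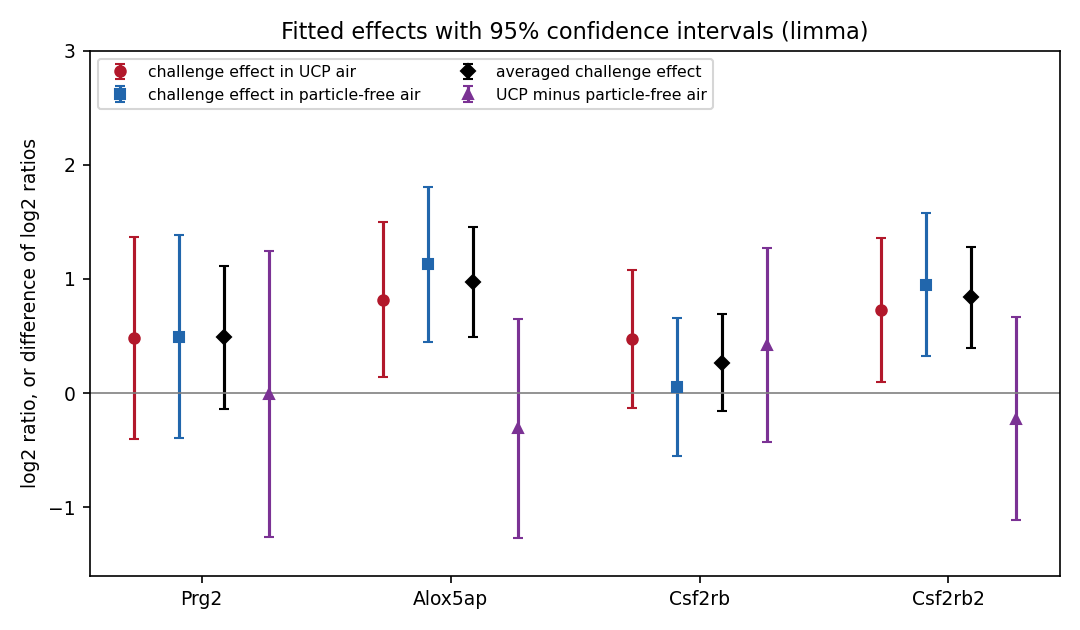
Fitted log2 ratio or difference (vertical axis) with 95% confidence intervals from limma for each gene (horizontal axis): challenge in UCP air, challenge in particle-free air, their average, and UCP minus particle-free air. Intervals of the average lie above 0 for Alox5ap (0.49 to 1.45) and Csf2rb2 (0.40 to 1.28), and those of the difference include 0 for all 4 genes.

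Other genes of the receptor family and of leukotriene synthesis were taken from 10 lists holding 97 genes, of which 43 besides the 4 genes had a value on every array. In this test, with the probes of a gene averaged, 0.0338% of all features passed an adjusted p of 0.05 in the averaged effect and 0 of the 43 did, the smallest adjusted p in limma being 0.0633 for Ccl8. Of the 43 genes, 10 lay above 0 on all 4 arrays and 5 below, where 14.2% of all 9153 genes lay above and 14.1% below. Counts on 1 side of 0 in the single lists below are to be read beside these shares. Their median averaged log2 ratio was 0, beside -0.01 over all genes. At least 1.5-fold higher on all 4 arrays were 2 of them, Cish and Ccl8, where 1.16% of all genes were.

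Among the chains of the receptor family, 3 of 5 were measured, Csf2rb2, Csf2rb and the interleukin-3 alpha chain Il3ra. Il3ra lay at 0.09 and 0.36 in UCP air, against 0.67 and 0.29 in particle-free air, above 0 on every array (average 0.35 ± 0.24, SD, n = 4, limma adjusted p = 0.422). The ligands Il3, Il5 and Csf2 and the alpha chains Il5ra and Csf2ra were not analysed here. Of the signalling genes 9 of 11 were measured, with a median of -0.06, 2 of them above 0 on all 4 arrays. Pik3cd, the catalytic subunit of a leukocyte phosphoinositide kinase, lay at 0.42 and 0.95 in UCP air, against 1.06 and 0.93 in particle-free air (average 0.84 ± 0.28, SD, n = 4, limma adjusted p = 0.194). Jak2, the kinase bound to the beta chain, and Stat5a and Stat5b, its transcription factors, averaged -0.07 ± 0.60, 0.02 ± 0.68 and 0.01 ± 0.17 (SD, n = 4 each), and each lay on both sides of 0. Jak1, a kinase of other cytokine receptors, lay at -0.63 and -1.04 in UCP air, against 0.14 and 0.40 in particle-free air.

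Of 7 measured target and feedback genes out of 10 listed, 3 lay above 0 and 1 below 0 on all 4 arrays, with a median of 0.16. Of all genes, 14.2% lay above and 14.1% below. Cish, an inhibitor of cytokine signalling that Stat5 induces, lay at 1.51 and 1.5 in UCP air, against 0.85 and 1.42 in particle-free air. This was the highest average of the receptor family lists, 1.32 ± 0.32 or 2.5-fold, with every array at least 1.5-fold above its pool (SD, n = 4, limma adjusted p = 0.116, unadjusted p = 0.000997). Socs2, a related inhibitor, averaged 0.60 ± 0.27 and the kinase Pim1 0.30 ± 0.08, both above 0 on every array (SD, n = 4 each), while the survival gene Bcl2l1 averaged -0.27 ± 0.22 over 4 probes, whose means spanned 0.86, and lay below 0 on every array. Without Csf2rb and Csf2rb2, the 17 measured genes of the receptor family lists had a median of 0.02, with 6 above and 1 below 0 on all 4 arrays.

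Alox5ap had the highest average of the 9 measured leukotriene enzymes out of 14 listed. The other 8 measured ones had a median of -0.11, with 1 above and 3 below 0 on all 4 arrays. Alox5, the 5-lipoxygenase that Alox5ap serves, lay at 0.48 and -0.40 in UCP air, against -0.50 and -0.02 in particle-free air (average -0.11 ± 0.45, SD, n = 4, 2 probes averaged). Lta4h, which makes leukotriene B4, averaged -0.11 ± 0.45, and Mgst2, which can make leukotriene C4, averaged 0.17 ± 0.07 (SD, n = 4 each). The leukotriene receptor Cysltr2 lay at 0.25 and -0.74 in UCP air, against -1.01 and -0.95 in particle-free air. The difference between Alox5ap and the other enzymes was not tested, because the list was not chosen independently of these values. Of 5 measured prostaglandin enzymes, 0 lay on 1 side of 0 on all 4 arrays once the probes of a gene were averaged. The 2 probes of Tbxas1 went opposite ways. Probe 3523 lay above 0 on all 4 arrays (0.07 to 1.58) and probe 9339 below 0 on all 4 (-0.48 to -0.11).

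**Figure D4:**
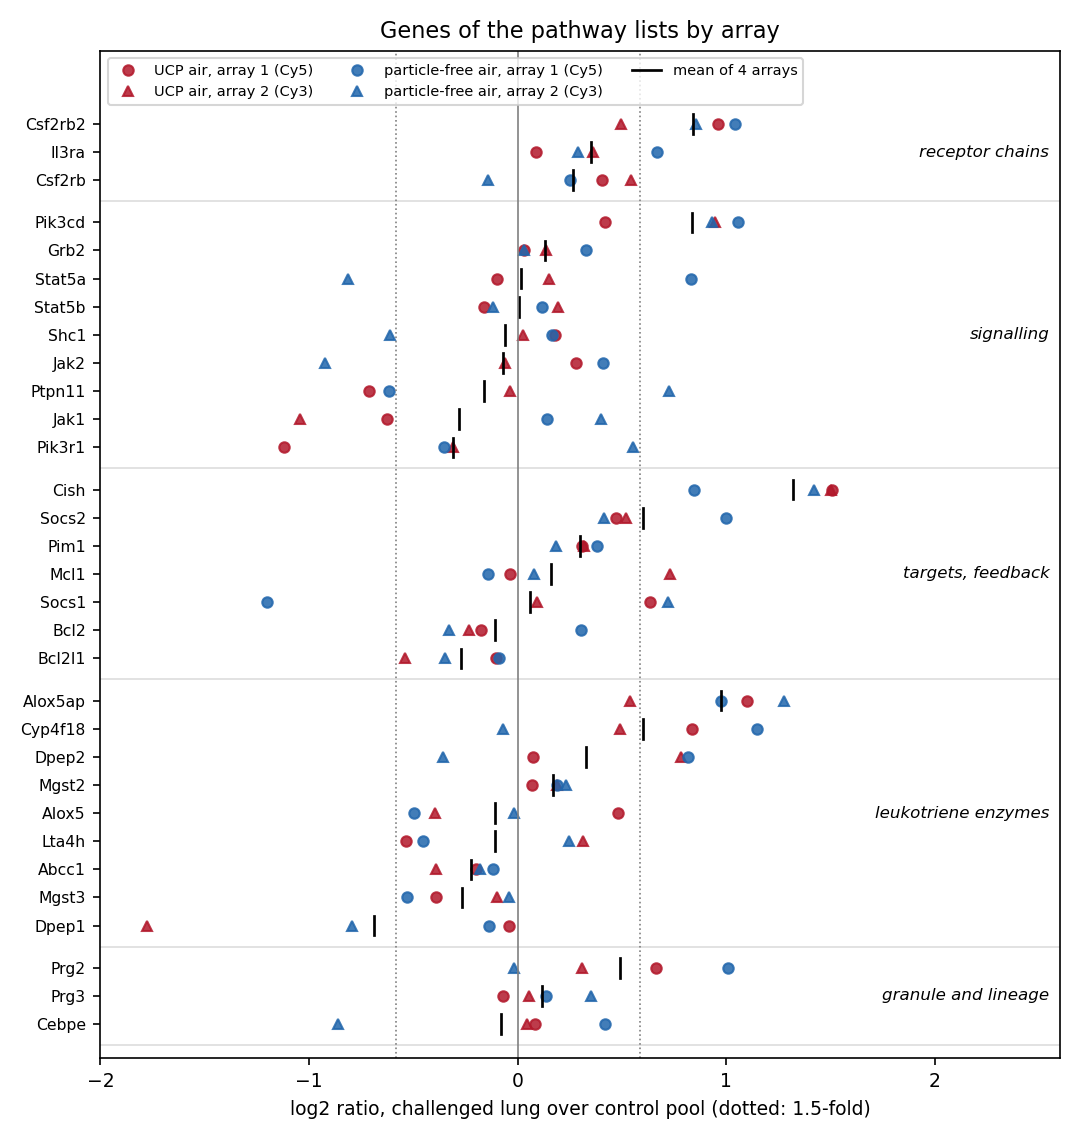
Log2 ratio of challenged lung over control pool (horizontal axis, dotted lines at 1.5-fold) for the measured genes of the receptor family, leukotriene and granule lists (rows), with 1 point per array and a bar at the mean of 4 arrays. Cish (mean 1.32), Alox5ap (0.97), Csf2rb2 (0.84) and Pik3cd (0.84) are the highest, while Jak2, Stat5a and Stat5b straddle 0.

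Other granule and lineage genes of eosinophils gave little beside Prg2. Of 14 listed, 3 had a value on all 4 arrays. Prg3, the second major basic protein, lay at -0.07 and 0.06 in UCP air, against 0.14 and 0.35 in particle-free air (average 0.12 ± 0.18, SD, n = 4, limma adjusted p = 0.741). Cebpe, a transcription factor of granulocyte maturation, averaged -0.08 ± 0.55 (SD, n = 4). Epx, the eosinophil peroxidase, had values on 3 arrays, -1.77 on array 1 of UCP air, against 0.36 and -2.66 in particle-free air. Thus neither Prg3 nor Epx lay on 1 side of 0 throughout. The surface markers Siglecf, Ccr3 and Il5ra and the ribonucleases Ear1, Ear2, Ear6, Ear10 and Ear11 were not analysed here.

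Genes of eosinophil attraction and adhesion had 8 measured members of 17, with a median of 0.01. Itgb2, the beta chain of the leukocyte integrins, lay at 0.95 and 1.05 in UCP air, against 1.15 and 0.43 in particle-free air (average 0.90 ± 0.32, SD, n = 4, limma adjusted p = 0.203). Itgb7, a beta chain of lymphocyte and eosinophil integrins, lay at 0.77 and 0.42 in UCP air, against 0.62 and 0.61 in particle-free air (average 0.60 ± 0.14, SD, n = 4, limma adjusted p = 0.254). The chemokine Ccl8 lay at 3.71 and 3.52 in UCP air, against 2.37 and 2.92 in particle-free air, and is likewise well known in allergic mouse lung, so its direction is no finding. The endothelial ligands Icam1 and Vcam1, to which these integrins bind, averaged 0.01 ± 0.23 and -0.15 ± 0.30 (SD, n = 4 each). Tslp, an epithelial cytokine upstream of type 2 responses, lay at 0.83 and -0.83 in UCP air, against -2.18 and -1.18 in particle-free air.

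The likeness of patterns was measured as the root mean square distance between the 4 array values of 2 genes, over 9152 other genes. Csf2rb2 was the 8th nearest gene to Alox5ap (distance 0.226 log2 units), and Alox5ap was the 30th nearest to Csf2rb2. Csf2rb was the 1806th nearest to Alox5ap (0.870) and the 1481st nearest to Csf2rb2 (0.696). Prg2 was the 745th nearest to Alox5ap (0.694) and the 406th nearest to Csf2rb2 (0.471). The 3 genes nearest to Alox5ap were Lhfpl2 (0.1), Porcn (0.149) and Rpn1 (0.191), and those nearest to Csf2rb2 were Nme2 (0.081), Glipr2 (0.089) and Prr13 (0.131). Nearest to Csf2rb were Snx12 (0.048), Tsr3 (0.069) and Dpcd (0.077), and nearest to Prg2 were Serpinh1 (0.101), Rps12 (0.109) and Nmb (0.113). All distances rest on 4 values that share their arrays and dyes.

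Markers of other cells, some of which use these genes, were read on the same arrays. Of all 9153 genes, 14.2% lay above 0 on all 4 arrays and 14.1% below, which is the share beside each count here. Of 9 measured macrophage markers out of 13 listed, 6 lay above 0 on all 4 arrays, with a median of 0.86 in UCP air and 1.33 in particle-free air. Ctss (2.27), Mrc1 (1.82), Lgals3 (1.82), Gpnmb (1.32), C1qa (1.09) and C1qc (0.78) averaged above 0, and Lyz2 (-0.34), Marco (-0.36) and C1qb (-0.11) below. Of 9 measured neutrophil markers out of 13, 5 lay above 0 on all 4 arrays. The list median was 0.59 in UCP air and 0.27 in particle-free air. Lcn2 (1.64), Ngp (1.33) and Camp (1.19) were highest on average, and Ltf (-0.08), Mmp9 (0.15), Mpo (0.19) and S100a9 (0.35) were lowest. The Lcn2 value averaged 2 probes, whose means spanned 2.93. Of 5 measured mast cell and basophil markers out of 11, 1 lay above 0 on all 4 arrays, Hdc at an average of 0.52, and 1 below, with list medians of -0.07 in UCP air and 0.15 in particle-free air. Of 5 measured T cell markers out of 10, 2 lay below 0 on all 4 arrays, with a median of -0.48 in UCP air and 0.02 in particle-free air; Cd8a averaged -1.58 in UCP air and -0.28 in particle-free air, and Thy1 -1.28 in UCP air and 0.13 in particle-free air. Of 7 B cell and plasma cell markers 1 was measured, Pou2af1, at 1.07 in UCP air and 1.56 in particle-free air. Of 9 measured liver markers 5 lay above 0 on all 4 arrays (median 0.48 in UCP air, 3.21 in particle-free air), 2 of 6 measured heart muscle markers lay below it (-2.75 in UCP air, 0.01 in particle-free air), as did 4 of 6 fat markers (-1.66 in UCP air, -1.14 in particle-free air). Of 5 measured lung epithelium markers out of 8, 0 lay above and 1 below 0 on all 4 arrays, with a median of 0.01 in each air. The part of any of these cells or tissues in the values of Alox5ap, Csf2rb2, Csf2rb and Prg2 was not tested.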

How the data were processed

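Lung RNA of challenged mice was set against a control pool on 4 dual-colour arrays; per the labels' protocols, indirect labelling with Cy3 and Cy5 started from 20 µg of RNA of single organs. The values the authors deposited are log2 ratios, and no source used here names the scanner, image software or normalization. On each array 20 to 58 probes lay at 1 extreme value, a ratio of 100000 on the log2 scale shifted by an array constant. With it removed, every ratio under 0.3 (238 to 707 per array) was whole thousandths within 0.0011 on the log2 scale. The extreme was positive on Cy5 and negative on Cy3 arrays, so the deposited ratios run 1 way on all arrays. Array medians ran from -0.074 to 0.021. No depth exists for arrays: their number limits the precision.

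Gene symbols came from the platform annotation (13852 probes with 1 symbol, 0 with several, 6353 with none), 13849 of them found in RefSeq by Entrez identifier. Probes with values on all 4 arrays (18160) entered limma 3.58.1 under R 4.3.3 with a coefficient for each air, 2 residual and 2.32 prior degrees of freedom, tested two-sided and adjusted by Benjamini-Hochberg at 0.05, with no filter on dim probes. The fit was tested on simulated data with the same spread for every probe, no dye effect and no extreme values. That simulation does not show how the fit handles the unequal spreads and extreme values of these arrays. For lists, probes of a gene were averaged. Named were all 4 genes, genes of the 10 pathway lists past 1.5-fold in 1 direction on all arrays of an air, defining members and the 3 nearest genes; further list members (Pim1, Socs2, Bcl2l1 and others with values) and the named cell markers were chosen after their values were seen. Members and lists were chosen with earlier results of these data known. The alternatives tried were centring, scaling, a replicate block, averaging probes first, averaging or pooling arrays, admitting probes with 3 values and leaving out each array. The comparison of Csf2rb2 with Csf2rb was added after the values were seen.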

Additional observations from a re-analysis of the deposited data

Results flagged for a closer look

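Jak1, a kinase of cytokine receptors in the signalling list, lay below 0 on both arrays of UCP air (-0.63 and -1.04) and above 0 on both arrays of particle-free air (0.14 and 0.40). Its UCP minus particle-free difference was -1.105 log2 units. In limma this difference had an unadjusted p of 0.0226 and an adjusted p of 0.988. A further Jak1 probe had values in UCP air alone, -0.42 and -0.50. No other gene of those tested for this, the 4 genes and the list genes named by rule, had both arrays of UCP air on 1 side of 0 and both arrays of particle-free air on the other. Jak1 was named by rule because it lay at least 1.5-fold lower on both arrays of UCP air, which is part of this pattern. Of all 9153 genes, 30.1% lay below 0 on both arrays of UCP air and 26.2% above 0 on both arrays of particle-free air. The share of all genes with both was not counted.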

How the results depend on the processing

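Across 152 values of the complete probes of the 4 genes (16 results, up to 11 other settings), 0 passed the threshold and 6 lay on the other side of 0. Prg2 probe 5282 was not among them. For Prg2, UCP minus particle-free air was 0.05 with arrays centred and scaled, 0.17 without array 2 of UCP air and 0.50 without array 1 of particle-free air (range when 1 array was left out, -0.52 to 0.50), and its challenge effect in particle-free air was -0.017 without array 1 and 1.01 without array 2 of that air. For Csf2rb2 the difference ranged from -0.46 without array 1 to 0.008 without array 2 of UCP air, and for Csf2rb the effect in particle-free air was -0.14 without array 1 and 0.25 without array 2 of that air. An array left alone in an air was assumed to vary like the others. In the averaged effect, Alox5ap kept its side of 0 from 0.83 to 1.11 (adjusted p from 0.112 to 0.618), Csf2rb2 from 0.72 to 0.95 (0.121 to 0.647), Prg2 from 0.23 to 0.75 (0.264 to 0.794) and Csf2rb from 0.17 to 0.36 (0.400 to 0.884). Over all probes the averaged effect called 1 probe. It called 2 with arrays centred and scaled, 5 with probes of a gene averaged, 72 with no term for air, and 0 after averaging the arrays within each air. Replicate numbers coincide with dye orientation and pair no animals, and with this replicate block the count was 0. Particle-free air called 10 probes when probes with 3 values were let in, against 0. Leaving out 1 array gave 0 to 34 calls in the averaged effect, 0 to 24 in particle-free air, 0 to 36 in UCP air and 0 to 32 for the difference. None of these calls was one of the 4 genes. Probes at the extreme value of an array were not removed from any fit. Their part in these calls, and any other cause of the changed counts, was not tested. At least 1.5-fold on all 4 arrays were 424 probes, 423 after centring and 406 after scaling (alternatives chosen after seeing the data), and 0 of the 4 genes under each. Signal over background was not available as a limit.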
